A study of Mus musculus with 35 samples.

Results

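To ask how supplying the active part of TET3 acts on cells that carry or lack its enzymatic function, gene expression was compared between cells given the Tet3 catalytic domain (Tet3-CD) and cells given an empty vector, in 3 genotypes. All samples of the series with either of these vectors were taken, which gave 6 RNA-seq samples of the 35 samples in the series. Each genotype has 1 empty vector sample and 1 Tet3-CD sample, and the 2 samples of a genotype form a pair. The cells were mouse embryonic stem cells (ESCs) of the male V6.5 line, with a mixed 129/C57BL/6 background, which had been taken toward neuroectoderm (NE) by removing LIF and adding 1 µM retinoic acid (RA). According to the labels, differentiation lasted 72 h, whereas the times in the methods of this experiment, with transfection partway through differentiation and collection later, add up to longer, and the conflict could not be settled. Tet3+/+ cells are wild type, Tet3m/m cells carry substitutions in the iron binding site of TET3 that abolish its enzymatic activity, and Tet3-/- cells lack an exon, which removes the protein. Both vectors were FUW-HA-2A-tdTomato, which marks cells that took it up with a red fluorescent protein, and only one of them carried HA-tagged wild-type Tet3-CD. Plasmids were transfected during differentiation, so that a sample holds a mixture of cells with and without vector. The labels do not say which clone or culture each sample came from, and a pair has no repeat, so that a difference inside one pair cannot be told apart from a difference between any 2 dishes.

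TET enzymes oxidize 5-methylcytosine, which leads to loss of DNA methylation, and the catalytic domain at the C terminus of TET3 carries this activity without the DNA-binding CXXC domain at the other end of the protein. ESCs that lose LIF and receive RA shut down the pluripotency network and switch on neural and Hox genes, and endoderm-like cells commonly appear beside the neural ones. The labelled cell type was checked against marker genes. The neural markers Sox1, Sox2, Sox3, Pax6, Nes and Tubb3 were all measured in the 6 samples, with Sox1 between 163 and 324 normalized counts and Nes between 5042 and 15200.3. Other neural genes were nearly absent from Tet3m/m cells, with 1.86 and 1.88 for Hes5 and 5.59 and 7.51 for Neurog2, empty vector first. The pluripotency gene Nanog had 3655 and 3406 there, so that the markers do not show a uniform neural identity. Markers of primitive endoderm were measured too, and the summed normalized count of the 33 endoderm genes examined was 1368530 with empty vector and 1145570 with Tet3-CD in Tet3+/+ cells, against 262155 to 398809 in the 4 mutant samples. In bulk samples, fewer cells of a type and less RNA per cell cannot be told apart.

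The V6.5 line is male, but the Tet3m/m samples held next to no RNA of Y-linked genes. Eif2s3y had 299 normalized counts with empty vector and 349.7 with Tet3-CD in Tet3+/+ cells and 1353 and 1368 in Tet3-/- cells, against 1.86 and 0 in Tet3m/m cells. Both samples of each pair were alike in this, and its part in the differences between pairs was not tested.

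Reads assigned to genes numbered 33475041 to 37707719 per sample. Of 17705 genes with values, 17481 had a mean normalized count of at least 10 and were compared. A ratio below is the log2 of the Tet3-CD value plus 1 minus the log2 of the empty vector value plus 1 in the same genotype, so that a positive ratio is a higher value with Tet3-CD. The 6 samples were then fitted together with limma, with genotype and vector as terms, and p-values were adjusted over all genes by the Benjamini-Hochberg method. A gene was to be called where its fold exceeded 1.5 and its adjusted p was below 0.05.

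No gene was called in this paired fit, neither higher (0% of genes) nor lower (0% of genes) with Tet3-CD. The lowest adjusted p by limma was 0.731, and 1007 genes had an unadjusted p under 0.05, of which 483 were higher and 524 lower. Run on whole reads recovered from the values, DESeq2 and edgeR (quasi-likelihood) called 0 genes as well, with 685 and 948 genes at an unadjusted p under 0.05. What follows therefore describes values in pairs, and no gene or gene group below passed the test unless a sentence says so.

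Tet3 itself was read first, since it checks the labels. Tet3 had 4755 normalized counts with empty vector and 5441 with Tet3-CD in Tet3+/+ cells, 1849.9 and 5232 in Tet3m/m cells, and 2069.8 and 2759 in Tet3-/- cells. It was higher with Tet3-CD in all 3 pairs, by a ratio of 0.19 in Tet3+/+, 1.5 in Tet3m/m and 0.41 in Tet3-/- cells. The mean ratio was 0.70 ± 0.23 (SE, n = 3 pairs), with an adjusted p of 0.731 by limma. In a separate experiment of the series, in which Dnmt1 or its own empty vector was given to the same genotypes in 2 samples each, the 2 repeats of a group differed by at most 0.22 in Tet3. That experiment followed another protocol, with transfection at the start of differentiation and drug selection of cells before collection, so that its repeats are a yardstick from unlike samples wherever they are used here. The ratio in Tet3+/+ cells was therefore within that spread, and the other ratios were beyond it. Reads of the vector and of the cells' own Tet3 cannot be told apart in these counts.

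**Figure D1:**
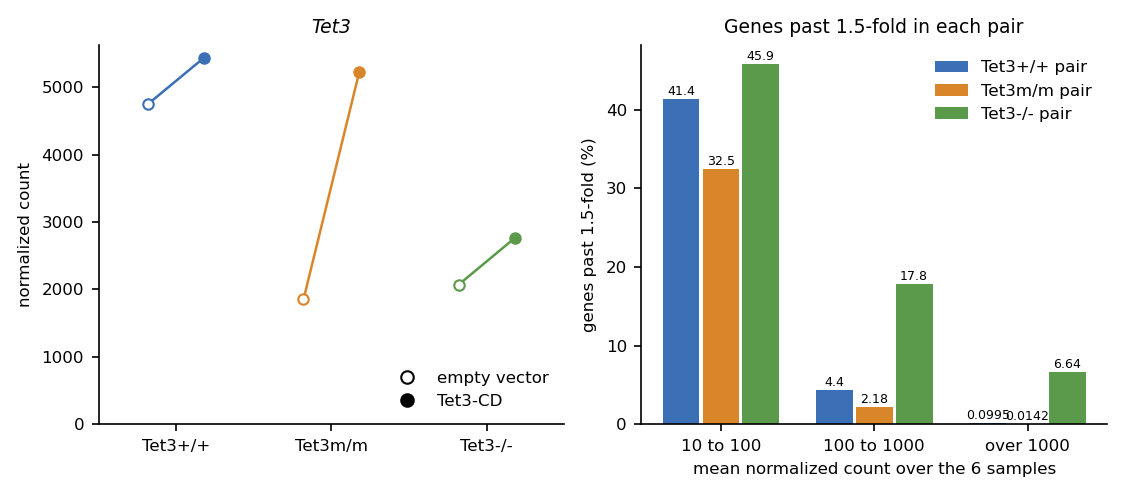
Left, normalized counts of Tet3 in each of the 6 samples, with open points for empty vector, filled points for Tet3-CD and a line joining each pair. Right, percentage of genes past 1.5-fold in either direction in each pair, for genes grouped by their mean normalized count over the 6 samples. The Tet3m/m pair has the largest gain in Tet3 and the lowest percentage in every group, and the Tet3-/- pair has the highest, with 6.64% of genes over 1000 against 0.0995% and 0.0142%.

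The number of genes that differed within a pair did not follow the gain in Tet3. Past 1.5-fold were 1068 genes higher (6.11%) and 1276 lower (7.3%) in the Tet3+/+ pair. In the Tet3m/m pair 800 genes were higher (4.58%) and 966 lower (5.53%). In the Tet3-/- pair 1728 genes were higher (9.89%) and 2023 lower (11.6%). For scale, 9.03% to 12.9% of genes were past 1.5-fold between 2 repeats of one group in the Dnmt1 experiment, so that the total of 10.1% in the Tet3m/m pair lies inside the range of repeats, the 13.4% of the Tet3+/+ pair just above it, and the 21.5% of the Tet3-/- pair well above it.

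Most of these genes had few reads, and well measured genes separated the pairs more clearly. Of 7036 genes with a mean over 1000 normalized counts, 467 differed by more than 1.5-fold in the Tet3-/- pair (273 higher and 194 lower), 7 in the Tet3+/+ pair and 1 in the Tet3m/m pair. That 1 gene was Tet3. The 7 in Tet3+/+ cells were Edn1, Serpinb9b, Wnt9a, Epn3 and Slc5a5, which were higher, and the pluripotency genes Nanog and Dppa5a, which were lower. All but Dppa5a had under 1000 normalized counts in both Tet3+/+ samples and reached that mean through the other genotypes. Between repeats of one group in the Dnmt1 experiment, 0% to 0.186% of genes with a mean over 1000 were past 1.5-fold. The share was 6.64% in the Tet3-/- pair, 0.0995% in the Tet3+/+ pair and 0.0142% in the Tet3m/m pair.

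Beyond size, the direction was compared across pairs, which share no sample. Across all 17481 genes, the ratios of any 2 pairs were close to unrelated, with Pearson's r of 0.05 between Tet3+/+ and Tet3m/m, 0.10 between Tet3+/+ and Tet3-/-, and -0.03 between Tet3m/m and Tet3-/-. These are descriptions across genes, which are not independent, and the 2 samples behind each ratio also carry counting error. Among the 273 well measured genes that were higher in the Tet3-/- pair, 245 (89.7%) were also higher in the Tet3+/+ pair, where 54.4% of all well measured genes were higher. Of the 194 that were lower in the Tet3-/- pair, 158 (81.4%) were lower in the Tet3+/+ pair, against 45.6% of all. In the Tet3m/m pair the same 2 groups had 33% and 54.1% with the same sign, against 52.2% and 47.8% of all. The size in Tet3+/+ cells was small, with a median ratio of 0.18 and -0.14 for genes that had medians of 0.81 and -0.82 in Tet3-/- cells. Thus the Tet3+/+ pair leaned the same way as the Tet3-/- pair at a fraction of the size, and the Tet3m/m pair did not.

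Genes past 1.5-fold the same way in all 3 pairs were few. There were 26 such genes higher (0.149% of genes tested) and 85 lower (0.486%), whereas a positive ratio of any size in all 3 pairs was held by 2615 genes (15%) and a negative one by 2704 (15.5%). Low counts made up most of them, since 25 of the 26 and 76 of the 85 had a mean under 50 normalized counts. In 6 of the higher and 18 of the lower genes, the 95% interval of the ratio from counting error excluded no change in every pair. The interval covers counting error only. Just inside the limit, the smallest pair fold was 1.51 for Nectin4 and 1.53 for Wnt1, and just outside it were Mab21l4 with 1.49 and Kif12 with 1.5. None of the genes was called for Dnmt1 over empty vector in the other experiment, where 19 and 79 of them were measured and 64 genes (0.354%) were called higher and 29 (0.161%) lower.

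In the values that follow, the empty vector sample of a genotype is given first and its Tet3-CD sample second. The named genes that were lower in all 3 pairs had a mean of at least 50 over the 6 samples, which some reached only through Tet3+/+ and Tet3-/- cells. Pou3f3, a POU factor of neural progenitors, had 344 normalized counts with empty vector and 206 with Tet3-CD in Tet3+/+ cells, 98.7 and 52.6 in Tet3m/m cells, and 416 and 172 in Tet3-/- cells. Both mutants and wild type thus went the same way, although the level in Tet3m/m cells was the lowest. The mean ratio of Pou3f3 was -0.97 ± 0.17 (SE, n = 3 pairs), the smallest p of any gene in the fit, with an adjusted p of 0.731 by limma.

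Scrt2, a zinc-finger repressor of newborn neurons, had 110.0 against 48.4 normalized counts in Tet3+/+ cells, 14.9 against 6.58 in Tet3m/m cells, and 125 against 16.1 in Tet3-/- cells. Nhlh2, a helix-loop-helix factor of differentiating neurons, had 162 against 94.8, 7.45 against 1.88, and 279 against 108 in the same order. Both had few reads in Tet3m/m cells with either vector, as did Wnt1, so that their place among genes lower in all 3 pairs rests on those few reads. Dll3, a Notch pathway ligand that acts inside the cell, had 105 against 67.2, 98.7 against 39.5, and 137 against 66.1. Its 3 values with Tet3-CD all lay below its 3 values with empty vector. Wnt1, the midbrain signaling ligand, had 122 against 61.2, 14.9 against 9.39, and 94.2 against 35.9.

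The spread of these genes between repeats limits what can be said. The largest ratio between 2 repeats of one group in the Dnmt1 experiment was 0.70 for Pou3f3, 1.35 for Scrt2, 1.29 for Nhlh2, 1.06 for Wnt1 and 0.38 for Dll3. Only the ratios of Pou3f3 and Dll3 were larger than that spread in every pair. For Dll3 this was fixed by the choice of genes, since the fold limit that picked them lies above its spread. Mean ratios in the Dnmt1 experiment were 0.11 for Pou3f3 and -0.01 for Dll3, and neither was called there.

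A pair of antiviral genes was lower in all 3 pairs as well. Oas1a, which makes the signal that activates RNase L, had 29.9 against 13.8 normalized counts in Tet3+/+ cells, 68.0 against 36.6 in Tet3m/m cells, and 339 against 133 in Tet3-/- cells. Dhx58, which encodes the RNA sensor LGP2, had 85.5 against 42.5, 59.6 against 37.6, and 113 against 51.0. For Dhx58 the values with Tet3-CD again all lay below those with empty vector. The largest ratio between repeats was 0.46 for Oas1a and 0.42 for Dhx58. The 1.5-fold limit by which both genes were chosen lies above these, so that larger ratios in every pair were fixed by the choice. The remaining named genes that were lower in all 3 pairs were Soat2, an enzyme that esterifies cholesterol, and Fthl17a, a ferritin-like gene, with mean ratios of -1.18 ± 0.34 and -1.11 ± 0.33 (SE, n = 3 pairs).

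Nectin4, a cell adhesion protein of epithelia, was the only gene with a mean of at least 50 that was higher in all 3 pairs. It had 29.9 against 47.4 normalized counts in Tet3+/+ cells, 102 against 155 in Tet3m/m cells, and 60.1 against 102 in Tet3-/- cells. The ratio was 0.59 to 0.75, below the largest ratio between repeats of 1.01.

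**Figure D2:**
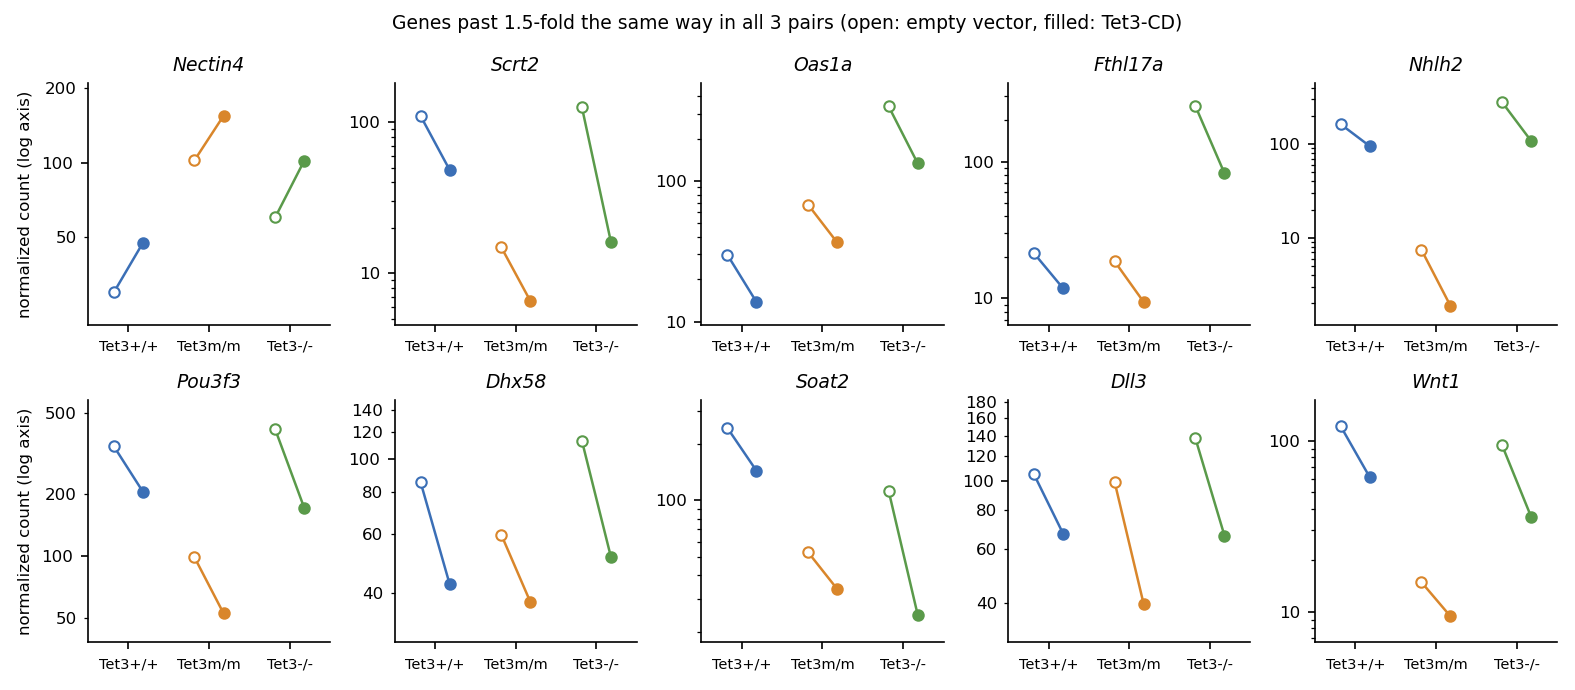
Normalized counts, on log axes that differ between panels, of the 10 named genes with a mean of at least 50 that were past 1.5-fold the same way in all 3 pairs. Open points are empty vector, filled points are Tet3-CD, and each line joins the pair of one genotype. Nectin4 is higher with Tet3-CD in each genotype and the other 9 genes are lower, and the genotypes start from different levels.

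Smaller ratios in well measured genes also ran alike in the 3 genotypes. Among them were Col4a1 and Lama1, which encode chains of type IV collagen and laminin, components of basement membrane. Col4a1 had 340553 against 275538 normalized counts in Tet3+/+ cells, 59488.5 against 51494.9 in Tet3m/m cells, and 92922.9 against 55079.9 in Tet3-/- cells. Lama1 had 196257 against 158148, 30087.8 against 25685.9, and 40099.2 against 14416.8. Both were lower in every pair, with ratios of -0.31, -0.21 and -0.75 for Col4a1 and -0.31, -0.23 and -1.48 for Lama1. The largest ratio between repeats was 0.18 for Col4a1 and 0.39 for Lama1, so that Col4a1 was beyond it in every pair and Lama1 in the Tet3-/- pair. Other genes of the endoderm list did not all follow. Nid1, another basement membrane gene, had ratios of -0.14, -0.14 and 0.20, Plat had 0.02, -0.02 and 0.18, and Thbd was higher in each pair with 0.23, 0.12 and 0.46.

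Without the Tet3-/- pair, limma on the other 2 pairs gave 24 genes an adjusted p under 0.05, 8 higher and 16 lower, and 21 of them had the same sign in the left-out pair. Col4a1 and Lama1 led that list with an adjusted p of 4.27e-05 each, and Col4a2, Lamc1, Sox7 and Srgn, all made by endoderm, were on it. Tet3 and Adnp alone also passed 1.5-fold there, Tet3 higher with a log2 difference of 0.85 and an adjusted p of 0.000316, and Adnp lower with -0.62 and 0.00826. Neither was called with all 3 pairs, or when the Tet3+/+ or the Tet3m/m pair was left out, and each gene named from this list was chosen after its values were seen. With 2 pairs, the fit takes the spread of a gene largely from other genes, so that these p-values do not measure the spread between dishes. For Lama1, neither ratio in those pairs exceeded the largest ratio between repeats.

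Adnp was one of the 16 lower genes, and H1f10, Dnmt3l and Epop were others. Adnp, a zinc-finger protein that represses lineage genes with CHD4 and HP1, had 701 against 549 normalized counts in Tet3+/+ cells, 906 against 488 in Tet3m/m cells, and 1052 against 608 in Tet3-/- cells. H1f10, a linker histone, had 2824 against 2216, 2343 against 1935, and 2608 against 1666. Dnmt3l, the partner of the de novo DNA methyltransferases, had 1553 against 1035, 2811 against 2451, and 2159 against 1128. In Adnp and H1f10 every value with Tet3-CD was below every value with empty vector, and in Dnmt3l the ranges overlapped. The share of all genes that separate in this way was not counted, here or for Dll3 and Dhx58 above. All of these genes were picked for being lower with Tet3-CD, so that the separation is a description only. Epop, an elongin-binding partner of Polycomb complexes in ESCs, was lower by ratios of -0.36, -0.20 and -0.36 in Tet3+/+, Tet3m/m and Tet3-/- cells. Among the 8 that were higher, Igfbp3, a secreted protein that binds insulin-like growth factors, had ratios of 0.30, 0.22 and 0.33.

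Apart from Dnmt3l, most enzymes of DNA methylation and demethylation differed little. Of the 37 genes examined, 0 were past 1.5-fold in the Tet3+/+ pair and 1 in the Tet3m/m pair, which was Tet3 itself. The shares were 13.4% and 10.1% of all genes, but 0.0995% and 0.0142% of genes with a mean over 1000 normalized counts. Beside such genes, 0 and 1 of 37 do not make the list unusually stable. Dnmt3l lay just inside the limit in the Tet3+/+ pair, with a ratio of -0.58. In the Tet3-/- pair 1 of the 37 was higher, the DNA repair-linked Gadd45g, and 5 were lower. The shares there were 9.89% and 11.6% of all genes, and 3.88% and 2.76% of genes with a mean over 1000. The 5 were Dnmt3l, Tet1, the DNA glycosylase genes Ung and Neil3, and Dppa3, which shields DNA from UHRF1. Tet1 had 2047 against 1942 normalized counts in Tet3+/+ cells, 1678 against 1818 in Tet3m/m cells, and 2061 against 1318 in Tet3-/- cells. Its sister Tet2 had ratios of 0.08, 0.03 and -0.21, and the maintenance methyltransferase Dnmt1 had -0.03, 0.05 and -0.38. For most of the list the ratios were thus small in the first 2 pairs and larger in Tet3-/- cells, where the median was -0.12 beside -0.01 and 0.04.

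Pluripotency genes were lower with Tet3-CD in Tet3+/+ and Tet3-/- cells and close to level in Tet3m/m cells. Of 34 genes of this list, 16 had an unadjusted p under 0.05 in the paired fit by limma and all 16 were lower with Tet3-CD. Of all 17481 genes, 524 had such a p and were lower. Members of a list are not independent, and the lists were chosen with earlier results of these data known. Such counts, here and in later lists, are therefore descriptions. The median ratio was -0.33 in Tet3+/+, -0.02 in Tet3m/m and -0.57 in Tet3-/- cells, beside medians of all genes between -0.02 and 0.00. In Tet3+/+ cells 7 of the 34 were past 1.5-fold lower and 0 higher, and in Tet3-/- cells 16 were lower and 1 was higher. The shares of all genes to set beside these and the later list counts are 7.3% lower and 6.11% higher in the Tet3+/+ pair, 5.53% and 4.58% in the Tet3m/m pair, and 11.6% and 9.89% in the Tet3-/- pair.

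Nanog, a homeodomain factor of naive pluripotency, had 626 against 393 normalized counts in Tet3+/+ cells, 3655 against 3406 in Tet3m/m cells, and 1552 against 1021 in Tet3-/- cells. Pou5f1, which encodes OCT4, had 642 against 460.3, 3060.2 against 2845, and 1462 against 856. Both were lower in each pair, least in Tet3m/m cells, where their levels were the highest with either vector. The largest ratio between repeats was 0.11 for Nanog and 0.14 for Pou5f1, so that the Tet3+/+ and Tet3-/- ratios, -0.67 and -0.60 for Nanog and -0.48 and -0.77 for Pou5f1, were several times larger. Dppa5a, Sox2, Esrrb and Utf1 were lower in these 2 pairs too, with ratios of -0.26 to -0.63 in Tet3+/+ and -0.71 to -1.23 in Tet3-/- cells. Dppa2 went the other way in Tet3-/- cells with a ratio of 0.65. In the Dnmt1 experiment the median ratio of the list, Dnmt1 over its empty vector, was 0.04, 0.14 and 0.52 in Tet3+/+, Tet3m/m and Tet3-/- cells, so that in Tet3-/- cells the sign there was the opposite.

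Endoderm genes gave the most negative median of any list in the Tet3-/- pair. It was -0.27 in Tet3+/+, -0.06 in Tet3m/m and -0.86 in Tet3-/- cells for 33 genes, of which 21 were past 1.5-fold lower and 1 higher in Tet3-/- cells and 2 lower and 0 higher in Tet3+/+ cells. In the paired fit 13 were lower and 1 higher at an unadjusted p under 0.05. Cubn, an uptake receptor of visceral endoderm, had 27912 against 23591 normalized counts in Tet3+/+ cells, 5508 against 5287 in Tet3m/m cells, and 6071 against 1669.7 in Tet3-/- cells. Gata4, a factor that specifies endoderm, had 14098 against 11641, 2522 against 2230.0, and 3106 against 1200.1. The secreted proteins Apoa1 and Afp were at the far end, with 51.1 against 3.78 and 58.1 against 5.67 in Tet3-/- cells. These visceral genes also varied between repeats, by up to 1.13 for Cubn, 2.09 for Apoa1 and 1.29 for Afp, whereas Gata4 varied by at most 0.26. Gata6, another endoderm factor, had ratios of -0.17, -0.05 and 0.44 and so did not follow the list in Tet3-/- cells.

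Genes of glycolysis and of the response to low oxygen were lower with Tet3-CD in all 31 members in Tet3+/+ cells. They were lower in 18 of 31 in Tet3m/m and in 28 of 31 in Tet3-/- cells. Of well measured genes, 45.6%, 47.8% and 51.6% were lower in the same order. The 18 of 31 in Tet3m/m cells is near that share. None of the 31 members was past 1.5-fold in the first 2 pairs, with medians of -0.18 and -0.03. In the Tet3-/- pair 19 were past 1.5-fold lower and 1 higher, with a median of -0.77. The largest median between repeats of a group was 0.12 for this list. Ldha, which turns pyruvate into lactate, had 38349.6 against 33478 normalized counts in Tet3+/+ cells, 14200.4 against 14095 in Tet3m/m cells, and 38614 against 12493 in Tet3-/- cells. Bnip3, a mitophagy receptor induced by low oxygen, had 2903 against 2205, 613 against 550.4, and 3022 against 712. Egln3, an oxygen-sensing prolyl hydroxylase, had 1160.2 against 779, 182 against 226, and 1108 against 164. In these 3 genes the empty vector Tet3-/- sample was close to Tet3+/+ cells, and the Tet3-CD Tet3-/- sample was close to the Tet3m/m samples. In the Dnmt1 experiment the list had medians of -0.18, -0.02 and -0.18.

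Promoters of this list were searched for a short element. Hypoxia-inducible factor binds sites with the core letters ACGTG, which were searched on both strands in promoters from 250 bases before to 50 after each transcription start (RefSeq, GRCm38.p6). Of 28 list members with such a sequence, 20 (71.4%) held the core, against 21.8% of 27025 genes. The list was chosen as genes of glycolysis and low oxygen, so that this share describes the choice and is not a result of these data. The core lies inside the E-box CACGTG, so that a match to one can be a match to the other. The 20 genes with the core had a median ratio of -0.76 in the Tet3-/- pair and the 8 without it -0.84. The next lines give the 170 bases before the start of 3 members with large ratios, with the core or its reverse complement in capitals, on the strand of the gene. They lie at chr7:138909507-138909676 (minus strand, Bnip3), chr7:46845634-46845803 (plus strand, Ldha) and chrX:106186930-106187099 (plus strand, Pgk1, which encodes phosphoglycerate kinase).
Bnip3: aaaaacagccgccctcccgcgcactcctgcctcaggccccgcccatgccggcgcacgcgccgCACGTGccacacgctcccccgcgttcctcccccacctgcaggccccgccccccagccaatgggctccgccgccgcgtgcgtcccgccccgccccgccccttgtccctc
Ldha: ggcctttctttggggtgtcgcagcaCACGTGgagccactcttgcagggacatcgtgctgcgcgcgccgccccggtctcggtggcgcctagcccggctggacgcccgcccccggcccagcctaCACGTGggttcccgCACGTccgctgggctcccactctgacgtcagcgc
Pgk1: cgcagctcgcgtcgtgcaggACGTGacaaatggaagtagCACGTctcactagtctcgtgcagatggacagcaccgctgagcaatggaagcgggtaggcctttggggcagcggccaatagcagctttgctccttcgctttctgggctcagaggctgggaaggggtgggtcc
The capitals mark letters only, and binding was not measured here.

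Interferon-stimulated and antigen-presentation genes were lower chiefly in the Tet3-/- pair. Of 41 genes, 25 were past 1.5-fold lower and 4 higher in that pair, with a median of -0.81, against 8 lower and 3 higher in Tet3m/m cells (median -0.15) and 4 lower and 5 higher in Tet3+/+ cells (median 0.06). Of all genes, 11.6% were lower and 9.89% higher in the Tet3-/- pair, 5.53% and 4.58% in the Tet3m/m pair, and 7.3% and 6.11% in the Tet3+/+ pair, so that the 4 higher members in Tet3-/- cells are near the share of all genes. The largest median between repeats was 0.07. Irf7, a factor that drives interferon genes, had 21.4 against 3.95 normalized counts in Tet3+/+ cells, 33.5 against 29.1 in Tet3m/m cells, and 335 against 75.6 in Tet3-/- cells. Bst2, which tethers virus particles at the cell surface, had 757 against 839, 1112 against 887, and 6542 against 3131. Isg15, a ubiquitin-like modifier, had 82.3 against 103, 93.1 against 28.2, and 517 against 228. The Tet3-/- sample with empty vector was thus the highest of the 6 for each of these genes, and with Tet3-CD it was still the next highest. Cxcl10 and Gbp2, which answer to interferon gamma, went the other way in Tet3-/- cells, with ratios of 1.35 and 0.63.

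In the promoters of this list, the letters GAAA, any 2 bases and GAAA again, the core of the interferon-stimulated response element, were found on either strand in 16 of 34 genes with a sequence (47.1%), against 3.99% of 27025 genes. The list was chosen as interferon-stimulated and antigen-presentation genes, so that this share, too, describes the choice. The 16 had a median ratio of -0.85 in the Tet3-/- pair and the other 18 had -0.32, while in Tet3+/+ cells the medians were 0.06 and -0.01. Overlapping matches, of which both printed promoters hold at least 2, were counted once per gene. Oas1a is shown because it was lower in all 3 genotypes, and Isg15 because it was lower in both mutants and not in Tet3+/+ cells. The 170 bases before the start, at chr5:120907526-120907695 (Oas1a) and chr4:156200819-156200988 (Isg15), both on the minus strand, read as follows, with the matched stretch in capitals.
Oas1a: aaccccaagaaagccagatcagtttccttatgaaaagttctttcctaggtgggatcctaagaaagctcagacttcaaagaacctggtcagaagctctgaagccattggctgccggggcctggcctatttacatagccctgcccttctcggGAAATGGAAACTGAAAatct
Isg15: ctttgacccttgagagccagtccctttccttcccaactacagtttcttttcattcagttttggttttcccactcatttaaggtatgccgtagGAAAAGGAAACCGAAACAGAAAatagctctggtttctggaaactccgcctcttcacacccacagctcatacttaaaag

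Actin, SRF and YAP target genes were higher in the Tet3-/- pair. Of 39 immediate early genes and targets of SRF or YAP, 21 were past 1.5-fold higher and 1 lower there, with a median of 0.62, against medians of 0.04 in Tet3+/+ and -0.08 in Tet3m/m cells and a largest median between repeats of 0.18. In the Dnmt1 experiment the median in Tet3-/- cells was 0.38. Acta2, smooth muscle actin, had 15508 against 20439 normalized counts in Tet3+/+ cells, 59464 against 57211 in Tet3m/m cells, and 10581 against 60910.1 in Tet3-/- cells. Cnn1, calponin of smooth muscle, had 1052 against 1415, 4456 against 4479, and 932 against 4863. Tagln, an actin-binding protein, had 2012 against 2627, 7252 against 6484, and 1850.3 against 7945. As with the glycolytic genes, Tet3-/- cells with Tet3-CD were at or near the Tet3m/m level, and with empty vector they were at or under the Tet3+/+ level. Ratios of 2.53, 2.38 and 2.10 in Tet3-/- cells compare with at most 0.46 between repeats in these 3 genes, and the Tet3+/+ ratios of 0.40, 0.43 and 0.38 did not exceed it.

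Not all members of that list had large ratios in Tet3-/- cells. The immediate early genes Fos, Egr1 and Ier2, which answer within minutes to growth signals, had 0.26, 0.20 and 0.09, whereas the matricellular YAP targets Ccn1 and Ccn2 had 1.30 and 1.55. The CArG box, the element that SRF binds, was found in the promoters of 7 of 31 members (22.6%), against 1.81% of 27025 genes. SRF targets were put on the list as such, so that this share again describes the choice. Members with the box had a median ratio of 0.75 in the Tet3-/- pair and the other 24 had 0.60. Myl9, a light chain of smooth muscle myosin with 1938 against 6696 normalized counts in Tet3-/- cells, carries one at the far end of the 170 bases before its start, at chr2:156775294-156775463 on the plus strand, in capitals here.
Myl9: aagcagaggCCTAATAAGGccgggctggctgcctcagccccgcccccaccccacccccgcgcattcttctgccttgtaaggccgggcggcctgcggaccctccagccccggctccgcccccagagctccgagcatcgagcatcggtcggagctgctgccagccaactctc

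Hox genes, which RA switches on along the body axis, were also higher in the Tet3-/- pair. Of 35 measured, 18 were past 1.5-fold higher and 0 lower, and 31 of 35 had a positive ratio, with a median of 0.62 against 0.02 in Tet3+/+ and 0.06 in Tet3m/m cells. The largest median between repeats was 0.08. Hoxa5 had 1515 against 1537 normalized counts in Tet3+/+ cells, 2316 against 2175 in Tet3m/m cells, and 1284 against 3497 in Tet3-/- cells. Hoxc10 had 144 against 227, 287 against 329, and 82.2 against 261, and so was higher in every pair. Hoxb1 and Hoxd1 had ratios of 0.75 and 0.36 in Tet3-/- cells. Cyp26b1, an RA-degrading enzyme, was higher by a ratio of 2.31 there, with 1962 against 9742 normalized counts, beside 0.26 and 0.11 in Tet3+/+ and Tet3m/m cells. The 29 genes of the RA pathway had medians of 0.04, 0.02 and 0.23, with 7 past 1.5-fold higher and 4 lower in Tet3-/- cells.

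**Figure D3:**
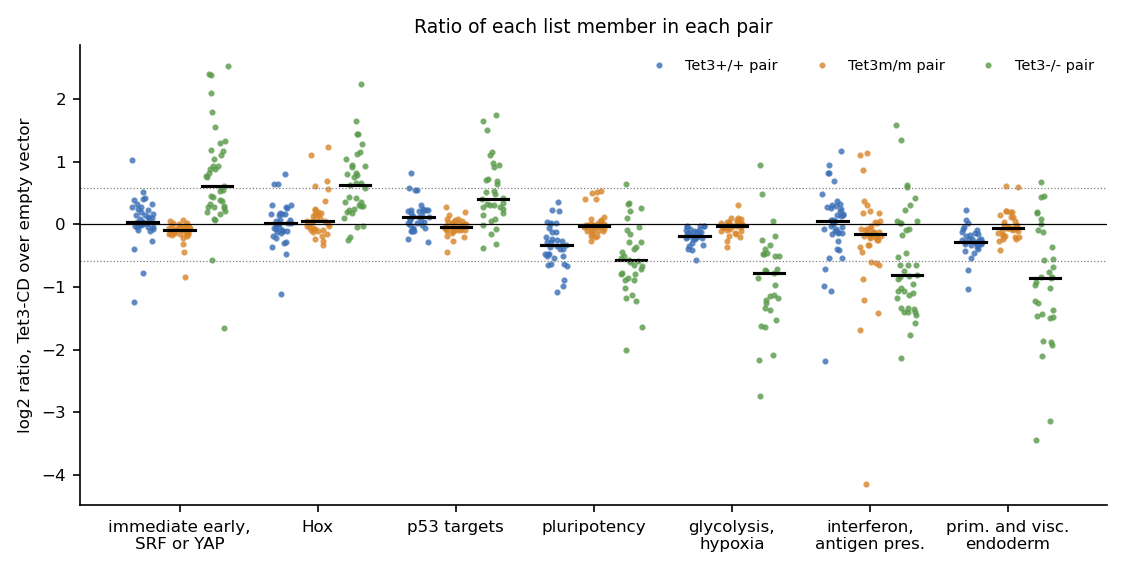
Ratio (log2, Tet3-CD against empty vector) for each measured member of 7 gene lists, by pair, with a black bar at the median and dotted lines at 1.5-fold. In the Tet3-/- pair the medians are 0.62, 0.62 and 0.41 for the first 3 lists and -0.57 to -0.86 for the other 4, whereas the Tet3m/m medians stay between -0.15 and 0.06.

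**Figure D4:**
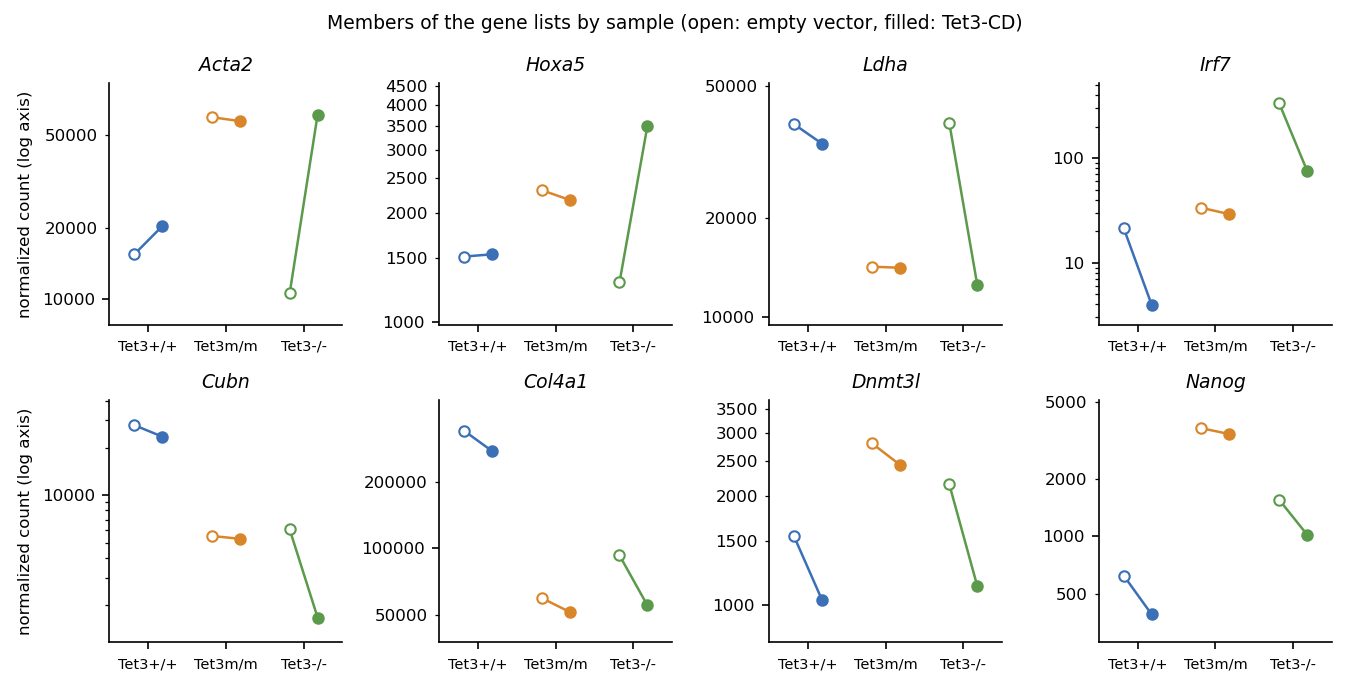
Normalized counts of 8 genes in the 6 samples on log axes that differ between panels, with open points for empty vector, filled points for Tet3-CD and a line per genotype. Acta2 and Ldha in Tet3-/- cells with Tet3-CD lie near the Tet3m/m level, while Col4a1, Dnmt3l and Nanog are lower with Tet3-CD in each genotype.

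Targets of p53 were mostly higher in the Tet3-/- pair. Of 33 genes, 12 were past 1.5-fold higher and 0 lower, with a median of 0.41 against 0.11 and -0.04 in Tet3+/+ and Tet3m/m cells and at most 0.14 between repeats. In the Dnmt1 experiment the medians of this list were 0.04, 0.00 and 0.25 in Tet3+/+, Tet3m/m and Tet3-/- cells. A higher median in Tet3-/- cells was thus seen with that vector too. Perp, an apoptosis effector, and the death receptor gene Fas had ratios of 1.16 and 1.66 in Tet3-/- cells and 0.54 and 0.56 in Tet3+/+ cells. Mdm2, which encodes the ubiquitin ligase of p53, had 8152 against 8832 normalized counts in Tet3+/+ cells, 18491 against 18044 in Tet3m/m cells, and 9211 against 14832 in Tet3-/- cells. Cdkn1a, the CDK inhibitor p21, had 6393 against 7239.6, 11577 against 10727, and 6657 against 10379. For both, Tet3m/m cells had the highest level with either vector. Trp53inp1 had ratios of 0.24, 0.16 and 0.41 and was among the 24 genes with an adjusted p under 0.05 by limma without the Tet3-/- pair.

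Neural genes were lower with Tet3-CD in Tet3+/+ and Tet3-/- cells. Of 49 neural progenitor factors, 18 were past 1.5-fold lower and 2 higher in the Tet3+/+ pair and 21 lower and 3 higher in the Tet3-/- pair, with medians of -0.32 and -0.44. In the Tet3m/m pair 4 were lower and 4 higher, with a median of 0.01. Between repeats, the largest median for this list was 0.23, which makes it the most variable of the lists. Sox1, an early marker of neuroectoderm, had 324 against 178 normalized counts in Tet3+/+ cells, 181 against 165 in Tet3m/m cells, and 279 against 163 in Tet3-/- cells. Hes5, a Notch target, had 64.1 against 21.7, 1.86 against 1.88, and 82.2 against 27.4, and was nearly absent from Tet3m/m cells. The proneural factor Neurog1 had 132 against 53.3, 16.8 against 13.2, and 279 against 90.7. Nes, which encodes the filament protein nestin, went the other way in Tet3-/- cells with a ratio of 1.29. The ratios of Sox1 in Tet3+/+ and Tet3-/- cells, -0.86 and -0.77, were larger than the 0.38 between repeats, and those of Hes5 and Neurog1 exceeded repeats that differed by 1.24 and 0.94.

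The 39 genes of neuronal differentiation followed, with medians of -0.16, 0.03 and -0.57 in Tet3+/+, Tet3m/m and Tet3-/- cells. In the Tet3+/+ pair 13 were past 1.5-fold lower and 1 higher, and in the Tet3-/- pair 18 were lower and 4 higher. Insm1, Robo3 and Elavl3 were lower in both, while the axon growth genes Gap43 and Dpysl3 were higher in all 3 pairs, with 0.37, 0.03 and 1.16 for Dpysl3. In the Dnmt1 experiment the medians of the progenitor list were 0.27, 0.20 and -0.24, which is the opposite sign in Tet3+/+ cells.

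**Figure D5:**
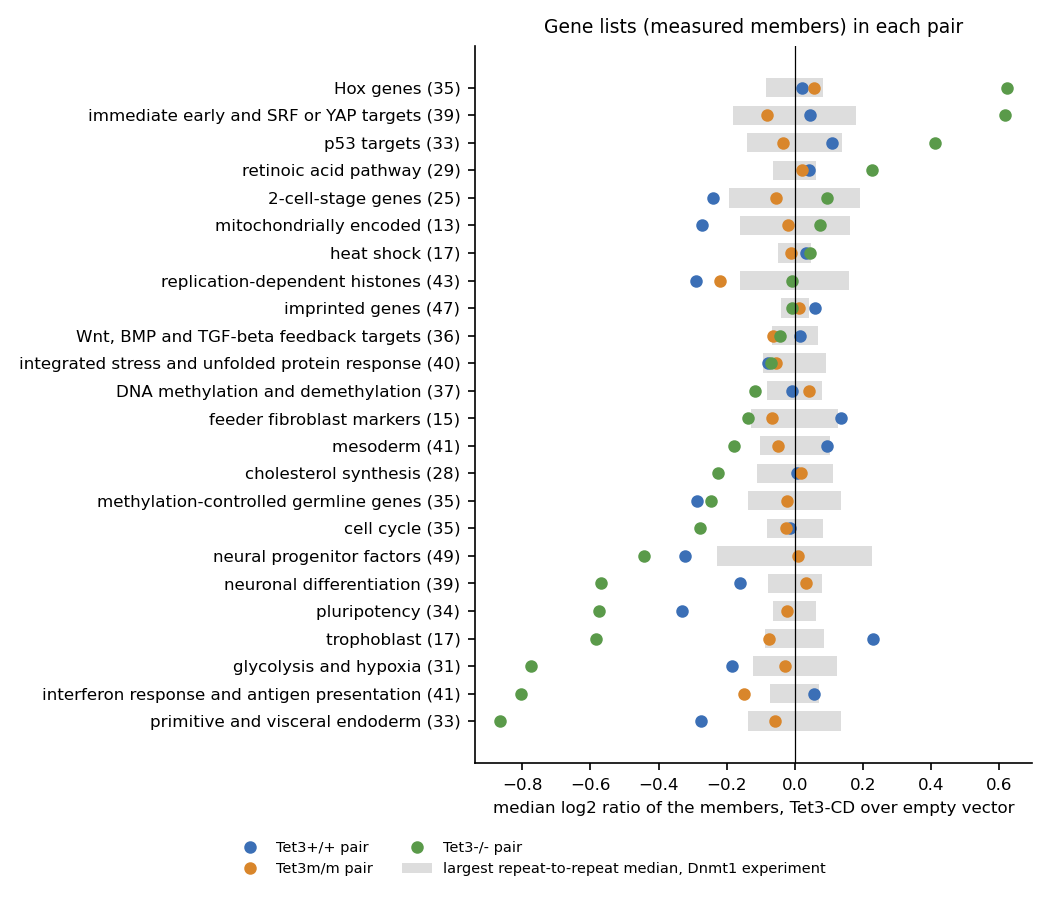
Median ratio (log2, Tet3-CD against empty vector) over the measured members of 24 gene lists, whose number is in brackets, by pair. Grey bars reach in both directions to the largest median between 2 repeats of one group in the Dnmt1 experiment. The Tet3-/- medians run from -0.86 for endoderm to 0.62 for Hox genes, and most Tet3m/m medians lie within the grey bars.

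Of 13 mitochondrially encoded genes, 12 were lower in Tet3+/+ cells, with a median of -0.27, while the medians were -0.02 and 0.07 in Tet3m/m and Tet3-/- cells and at most 0.16 between repeats. The cytochrome oxidase gene mt-Co2 had 1248 against 859 normalized counts in Tet3+/+ cells, 1005 against 690.4 in Tet3m/m cells, and 775 against 792 in Tet3-/- cells. Replication-dependent histone genes had medians of -0.29, -0.22 and -0.01 over 43 genes, and at most 0.16 between repeats. The methods speak of mRNA sequencing, which commonly selects poly(A) tails that most replication-dependent histone transcripts lack. How mRNA was selected is not given in the sources used here. Germline genes under the control of DNA methylation, a common readout of lost methylation, had medians of -0.29, -0.02 and -0.25 over 35 genes. Past 1.5-fold higher were 2 in Tet3+/+, 2 in Tet3m/m and 4 in Tet3-/- cells, against 6.11%, 4.58% and 9.89% of all genes. Past 1.5-fold lower were 9, 2 and 6, against 7.3%, 5.53% and 11.6% of all genes.

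Lists with medians near 0 in all 3 pairs were heat shock, imprinted, Wnt, BMP and TGF-beta feedback genes, and the integrated stress and unfolded protein response, all between -0.08 and 0.06. Mesoderm genes had medians of 0.10, -0.05 and -0.18, with 11 of 41 past 1.5-fold higher and 11 lower in Tet3-/- cells, against 9.89% and 11.6% of all genes. Genes of the 2-cell stage had medians of -0.24, -0.05 and 0.10. Genes of the cell cycle and of cholesterol synthesis had medians of -0.28 and -0.22 in the Tet3-/- pair and between -0.03 and 0.02 in the others. Trophoblast genes had a median of 0.23 in Tet3+/+ and -0.58 in Tet3-/- cells, where Tfap2c had 5242 against 2562 normalized counts. The 24 genes that the study names for their RNA level had medians of 0.15, 0.01 and -0.03, with 1, 2 and 7 past 1.5-fold higher and 3, 0 and 5 lower. This list mixes genes that the study reports as lower and as higher without TET3, so that its median shows neither kind. Hand1 and Sox5, which the study names as corrected by Tet3, had ratios of 0.23, -0.47 and -0.75 and of -0.31, 1.34 and -0.44. Sox5 had few reads. Mcam, a mesodermal gene, had 0.38, -0.11 and 1.31.

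Genes that differed in 1 genotype alone were taken as those past 2-fold in one pair and within 1.2-fold in the other 2. By this rule 94 genes stood out in Tet3+/+ cells (48 higher and 46 lower), 45 in Tet3m/m cells (20 and 25) and 288 in Tet3-/- cells (149 and 139). The rule used the ratios themselves, and the counts are given as a description. In Tet3+/+ cells Sh3rf2, which regulates apoptosis signaling, had 76.9 against 176 normalized counts and Nat14 had 40.6 against 111, while Rpl10l, a retrogene of a ribosomal protein, had 98.3 against 42.5. In Tet3m/m cells, Cyren, a regulator of DNA end joining, had 51.2 against 116 and the imprinted gene Rtl1 had 93.1 against 45.1. Ddx3y and Eif2s3y also met the rule in Tet3m/m cells, where they had few reads.

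In Tet3-/- cells the ratios of such genes were larger. Duox2 and its maturation factor Duoxa2, which make hydrogen peroxide at the cell surface, had 77.2 against 487 and 36.1 against 344 normalized counts. They had 462 against 529 and 426 against 359.8 in Tet3m/m cells and 34.2 to 51.4 in Tet3+/+ cells. Fgf13, an intracellular FGF-like protein, had 110.3 against 503 in Tet3-/- cells and 772 against 851 in Tet3m/m cells. Lower in Tet3-/- cells were Ugt2b34, a glucuronidating enzyme, with 241 against 43.5, Enpep, an aminopeptidase, with 104 against 24.6, and Esam, an endothelial adhesion protein, with 194 against 47.2. A pair of well measured genes, picked after their values were seen, had large ratios in Tet3-/- cells without meeting this rule. The endothelin gene Edn1 had 309.7 against 2002 normalized counts there and a ratio of 0.66 in Tet3+/+ cells, and the lactate exporter gene Slc16a3 had 8076 against 1888 and a ratio of -0.45.

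Possible mixtures of cells were read from the same values. Of 18 markers of feeder fibroblasts, 15 passed the filter and 2 had no values, and their summed level was 31640 to 41849 normalized counts with empty vector and 36436 to 45278 with Tet3-CD. In the Tet3-/- pair 1 was past 1.5-fold higher and 4 were lower, with 2854 against 1416 for Col1a2 and 11601 against 16298 for Col1a1. Trophoblast genes summed to 359719 and 363806 in Tet3-/- cells, 241909 to 246020 in Tet3m/m and 146131 to 173527 in Tet3+/+ cells. Most of the Tet3-/- sums was the imprinted gene Peg10, with 219228 against 198598, and the keratin gene Krt8 had 43805 against 66487. Of the 17 trophoblast genes, 8 were past 1.5-fold lower and 1 higher in that pair, against 11.6% and 9.89% of all genes. The sum does not show this. The part of a shift in cell mixture in the ratios of the Tet3-/- pair was not tested. The medians of the autosomes and X, 20 chromosomes in all, lay between -0.06 and 0.03 within a pair. Between genotypes, chromosome 6 had a median log2 difference of -0.24 with empty vector and -0.21 with Tet3-CD, Tet3m/m against Tet3+/+ cells. Chromosome 8 had 0.09 and 0.15 in Tet3-/- against Tet3+/+ cells. The part of these differences in levels compared between genotypes was not tested. The 4 genes tested on Y had medians of 0.16 in Tet3+/+, -1.30 in Tet3m/m, where they had few reads, and 0.10 in Tet3-/- cells.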

How the data were processed

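The study made these RNA-seq values from reads trimmed with Trim Galore (0.6.7), aligned with STAR (2.7.9a), counted per gene with featureCounts and divided by DESeq2 size factors. The labels list mm10, and the methods name a later mouse build. The deposited values are thus a signal of normalized counts, not raw counts. Within 0.01, 100% of the deposited values were whole multiples of 1 read, and reads recovered this way gave the depths and the count tests. Ratios were taken on log2(value + 1), where the pseudocount understates the change of low genes, for genes with a mean of at least 10. The 6 samples were fitted with limma (3.58.1, R 4.3.3, empirical Bayes with a trend), with genotype and vector as terms. The study's design for these samples was not given in the sources used here. Samples pair by genotype, since both samples of a pair are the same cell line genotype. The Dnmt1 experiment, with 2 samples per group (1 header name stands over both columns of Tet3+/+ empty vector), was fitted apart, and levels were not compared across the 2 tables. A call needed an adjusted p under 0.05 and a fold over 1.5. EdgeR (4.0.16) and DESeq2 (1.42.0) ran on the recovered reads and called 0 genes. Nothing says that samples came from separate cultures, so the spread may be technical. Other pseudocounts, filters, scalings and fits were tried, and each pair was left out in turn.

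Named genes were Tet3 and the DNA methylation list; genes past 1.5-fold the same way in all 3 pairs with a mean of at least 50, up to 10 per direction; the 5 highest and 5 lowest ratios in each pair alone; up to 4 members per list by mean ratio; and the genes the study names, leaving out predicted symbols. Other genes were chosen after their values were seen. The members and lists were chosen with earlier results of these data known. Each test was tested on simulated data first. Promoters came from RefSeq (GRCm38.p6) and were matched by symbol. All columns of per-sample values were mapped.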

Additional observations from a re-analysis of the deposited data

Results flagged for a closer look

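A pair of gene lists had medians of opposite sign in the Tet3+/+ and the Tet3-/- pair that were both at least 0.1 from 0 on the log2 scale. Other lists had opposite signs with one median closer to 0. The difference was not tested, since each pair is 1 sample against 1. Feeder fibroblast markers had a median ratio of 0.137 in Tet3+/+ cells and -0.137 in Tet3-/- cells, on the log2 scale, and the largest median between repeats was 0.13. Trophoblast genes had 0.230 in Tet3+/+ and -0.583 in Tet3-/- cells, with 0.09 between repeats. Among them, Gata2, a GATA factor of trophoblast, had 2707 against 3033 normalized counts in Tet3+/+ cells and 6670.5 against 3973 in Tet3-/- cells.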

How the results depend on the processing

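The count of 0 called genes was the same with a pseudocount of 0.1 or 5, without the filter, at a mean of at least 50, with TMM scaling, without the trend and by edgeR and DESeq2. Without the replicate block, that is with the pairing by genotype left out, 0 genes were called and 70 had an unadjusted p under 0.05. Leaving out a pair gave 0 to 1 genes called higher and 0 to 1 lower, and the calls came without the Tet3-/- pair. Counts of low genes depended on the settings. Of the 26 genes higher and 85 lower in all 3 pairs, a pseudocount of 5 gave 16 and 51, a mean of at least 50 gave 1 and 9, a 2-fold limit 5 and 12, and a counting interval that excludes no change, added after seeing the data, 6 and 18. Genes in one pair alone numbered 94, 45 and 288 in Tet3+/+, Tet3m/m and Tet3-/- cells. A pseudocount of 5 gave 58 and 28 in the first 2, a mean of at least 50 gave 17 and 9, limits of 1.5-fold and 1.2-fold gave 244, 152 and 963, and limits of 2-fold and 1.5-fold gave 329, 167 and 767. Fewer genes tested and other limits set these counts by construction. Of 450 list medians under these settings 447 moved by less than the spread and 3 by more, and 0 of 718 values of named genes did. With 1 sample per genotype and vector, no difference between pairs can be tested.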
